A study of Homo sapiens with 4 samples.

Results

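The chromosome 19q13 miRNA cluster is a run of closely related miRNA genes that is found only in primates. Its members were taken by name: every deposited name without a star that reads miR-498, miR-512, miR-515 to miR-527, miR-1283 or miR-1323, with any suffix. This gave 49 of the 1100 mature miRNA names, and 10 further names with a star (the arm once thought to be the lesser product of a hairpin) were kept apart. Each miRNA is cut from a hairpin transcript, which can yield a product from its 5′ side (5p arm) and from its 3′ side (3p arm).

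Small RNA was sequenced from 2 human breast lines and from the exosomes, small vesicles that cells release, purified from their cultures. MDA-MB-231, a triple-negative line from a metastatic breast cancer, was grown in DMEM with 10% fetal bovine serum. MCF-10A, an immortal but non-tumorigenic line of mammary epithelium, was grown in DMEM/F12 with 5% horse serum, insulin, EGF, cholera toxin and hydrocortisone. There was 1 library for each of the 4 groups, which were MDA-MB-231 exosomes, MDA-MB-231 cells, MCF-10A exosomes and MCF-10A cells, so the spread between replicates is unknown and no test was run. How the exosomes were purified was not given in the sources used here. Neither line received a treatment or a transgene per the labels.

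The cluster is transcribed from the paternal chromosome in the placenta, where its miRNAs are made at high level by trophoblast, and trophoblast exosomes carry them into the maternal blood. In most other adult tissues the promoter is methylated and the cluster is near silent. It is also active in some embryonic stem cells and is amplified or rearranged in certain childhood brain tumours and in some thyroid and liver tumours. A miRNA recognises target RNAs mainly through its seed, bases 2 to 8 counted from its 5′ end, and the cluster's copies have drifted apart in these bases.

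Mature sequences were matched in RefSeq (GRCh38.p14) for 46 of the 49 names. miR-518f, miR-522 and miR-527 had no match. The members with the most reads are shown first, because they make up most of the cluster's signal. The seed is in capitals.

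miR-517a and miR-517b: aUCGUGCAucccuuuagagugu

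miR-517c: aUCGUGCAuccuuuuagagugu

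miR-516b: aUCUGGAGguaagaagcacuuu

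miR-1323: uCAAAACUgaggggcauuuucu

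miR-516a-5p: uUCUCGAGgaaagaagcacuuuc

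miR-512-3p: aAGUGCUGucauagcugagguc

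miR-518c: cAAAGCGCuucucuuuagagugu

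The next group holds the other members with reads in MDA-MB-231, which are the ones the comparisons between libraries turn on. miR-516a-5p, listed with the first group, belongs here as well.

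miR-519a: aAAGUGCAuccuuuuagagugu

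miR-519b-5p and miR-519c-5p: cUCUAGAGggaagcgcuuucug

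miR-1283: uCUACAAAggaaagcgcuuucu

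miR-518a-5p: cUGCAAAGggaagcccuuuc

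The last group shows members whose seed is also that of miRNAs outside the cluster, and a pair that differs only in length. miR-519d has the seed of miR-17, and miR-520c-3p has that of miR-302a, miR-372 and miR-373.

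miR-519d: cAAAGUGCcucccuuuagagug

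miR-520c-3p: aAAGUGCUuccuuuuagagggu

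miR-520g: aCAAAGUGcuucccuuuagagugu

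miR-520h: aCAAAGUGcuucccuuuagagu

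Several names hold the same mature sequence and had the same deposited value in every library. These sets are miR-517a with miR-517b, miR-518a-5p with miR-527, miR-518d-5p with miR-520c-5p and miR-526a, miR-519b-5p with miR-519c-5p and 4 star names (miR-518e*, miR-519a*, miR-522* and miR-523*), and miR-516a-3p with miR-516b*. For miR-527 the match rests on the values alone. miR-520b and miR-520c-3p, of 21 and 22 bases, also shared their values. A read of such a sequence cannot be assigned to 1 hairpin. Counted once each, the 49 names stand for 43 distinct sequences, and the shares of cluster reads given here use these 43. miR-518d-3p and miR-519e had equal values (5.94, 66 reads) but different sequences and were kept apart.

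The sequences come from 46 hairpins on the plus strand of chromosome 19, within chr19:53666679-53762430 (GRCh38, GENCODE 29), a span of 95.8 kb. Of these hairpins, 45 lie outside annotated genes of other types on their strand, and the last, MIR519A2, overlaps an exon of the lincRNA AC011453.1. The pluripotency-linked hairpins MIR371A, MIR372 and MIR373 follow on the same strand, starting 25.2 kb after the end of MIR519A2.

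Levels are the deposited values, log2 of reads per 10000000 miRNA reads plus 1, and whole reads were recovered from them. MDA-MB-231 had a depth of 1532909 reads in exosomes and 7346116 in cells. MCF-10A exosomes had 1254644. The library labelled MCF-10A cell was the deepest, with 10937843. A count of 0 allows up to 3 reads, or 19.6, 4.08, 23.9 and 2.74 reads per 10000000 in the same order. Reads carry no molecular identifiers, so every interval is a 95% interval for counting error only.

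One library, labelled MCF-10A cell, differed from the other 3 in its make-up. Stromal miRNAs (miR-143, miR-145, miR-199a-5p and miR-214) made up 28.4% of its reads, against 0.00167% in exosomes of MCF-10A, and 0.000681% in cells and 0.574% in exosomes of MDA-MB-231. Muscle miRNAs made up 12.4%, with all 7 names of the list above 0, against at most 0.0181% elsewhere. Erythroid miRNAs reached 1.43% here, and the next highest share was 0.317%, in exosomes of MDA-MB-231. Leukocyte miRNAs, at 0.363%, were not far above the 0.283% found in those exosomes. Liver miR-122, at 0.196%, was below their 0.283%, so this marker did not set the library apart from them. Neuronal miRNAs were at most 0.0315% elsewhere and 0.257% in this library. Epithelial miRNAs listed for the labelled line (miR-205, miR-203, miR-31, miR-200c and miR-141) were all present in it at 0.775%, against 4.33% in MCF-10A exosomes. Most of both shares came from miR-200c (levels of 15.38 and 18.52) and miR-141 (14.58 and 15.33). miR-205 stood at 12.58 and 13.56. The part of these other tissue markers in the cluster's values was not tested. In such bulk libraries, fewer cells of a type and less RNA per cell cannot be told apart.

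The cluster was read in depth in a single library. All 49 names were above 0, with 10 or more reads each, in the library labelled MCF-10A cell. By contrast 8 names were above 0 in MDA-MB-231 cells, and 1 of them reached 10 reads. In MDA-MB-231 exosomes 5 names were above 0 and none reached 10 reads. In MCF-10A exosomes all 49 were at 0. Of all 1100 names, 794, 566, 508 and 436 were above 0 in the same order, so detection also fell with depth over the whole table. The names with reads in MDA-MB-231 exosomes were all among those with reads in the cells.

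**Figure D1:**
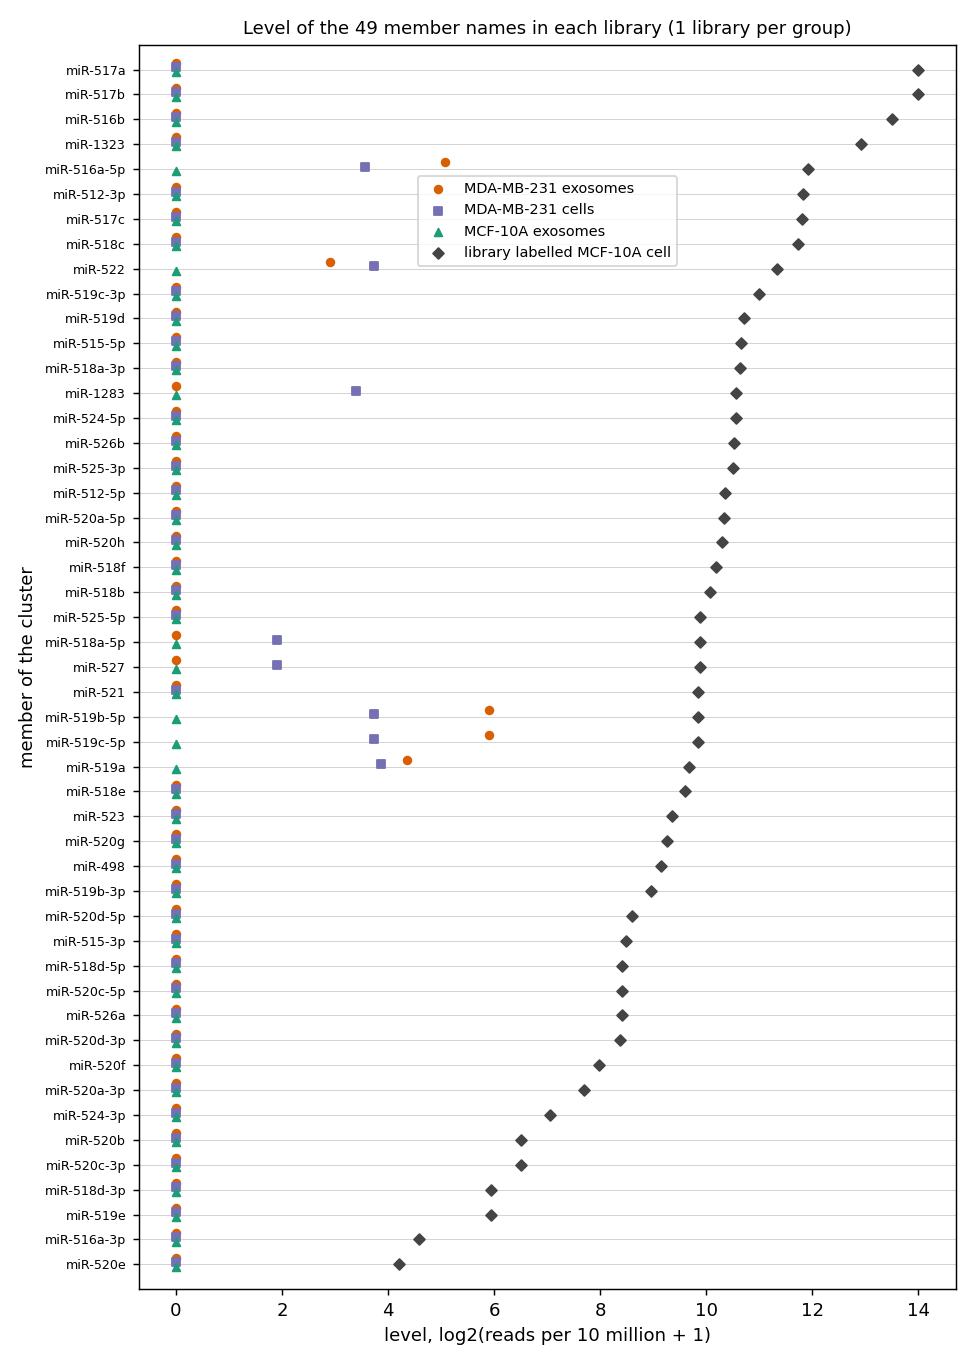
Level of each of the 49 names (vertical axis, ordered by level) in the 4 libraries, as log2 of reads per 10000000 plus 1 on the horizontal axis, 1 point per library. The diamonds of the library labelled MCF-10A cell run from 4.20 to 14, while the other libraries sit at 0 except for 8 names in MDA-MB-231 cells and 5 in MDA-MB-231 exosomes.

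As a share of all miRNA reads, the 49 names took 1.01% of the library labelled MCF-10A cell (110128 reads, interval 1.00% to 1.01%). They took 0.000762% of MDA-MB-231 cells (56 reads, 0.000587% to 0.000990%) and 0.00176% of MDA-MB-231 exosomes (27 reads, 0.00121% to 0.00256%). In MCF-10A exosomes the share was 0, which allows up to 0.000239%. With each distinct sequence counted once, the reads were 89338, 45, 18 and 0 in the same order, or 0.817%, 0.000613%, 0.00117% and 0% of the library. The intervals of these shares in the 2 MDA-MB-231 libraries, 0.000458% to 0.000820% and 0.000743% to 0.00186%, overlapped.

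In the library labelled MCF-10A cell the 49 levels spanned 4.20 to 14, with a median of 9.88. The median over the 794 names above 0 in that library was 7.28. miR-517a and miR-517b, trophoblast miRNAs carried by placental exosomes, had the highest level, 14 (17919 reads), and ranked 67 among the 1100 names. miR-516b followed at 13.51 (12759 reads) and miR-1323, encoded near the start of the cluster, at 12.91 (8417 reads). These 3 sequences held 43.8% of the cluster's reads, with 20.1% in miR-517a alone.

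Below them the levels fell gradually. miR-516a-5p stood at 11.91, miR-512-3p at 11.83, miR-517c at 11.81 and miR-518c at 11.73. miR-522 followed at 11.34, miR-519c-3p at 10.99, miR-519d at 10.72, miR-515-5p at 10.66 and miR-518a-3p at 10.64, and miR-1283 and miR-524-5p both stood at 10.57. The top 5 sequences held 52.9% of the cluster's reads and the top 10 held 69.2%. The lowest members were miR-520e at 4.20 (19 reads), miR-516a-3p at 4.58 (25 reads), and miR-518d-3p and miR-519e at 5.94. Even these were above the 3-read limit of the library. Neighbours in this order that differ by less than the deposited rounding or by few reads, such as miR-512-3p (3981 reads) and miR-517c (3926 reads), cannot be ranked.

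The 46 members with a matched sequence fall into 26 seed groups, and few groups carried most of the reads. miR-518f and miR-522, with 4.59% of the cluster's reads, and miR-527 had no matched sequence and were put in no group. Groups to which they belong could thus hold more than is given. The seed UCGUGCA of miR-517a, miR-517b and miR-517c held 24.5% of the cluster's reads (interval 24.2% to 24.7%). The single-member seeds UCUGGAG (miR-516b) and CAAAACU (miR-1323) held 14.3% and 9.42%. The seed AAAGCGC of miR-518a-3p, miR-518b, miR-518c and miR-518d-3p held 7.51%, and within it the levels ran from 5.94 for miR-518d-3p to 11.73 for miR-518c. The seed AAGUGCA of miR-519a, miR-519b-3p and miR-519c-3p, the group reported to repress the RNA-binding protein HuR, held 4.09%. Sharing a seed therefore did not go with sharing a level.

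The seeds AAAGUGC and AAGUGCU, shared with miRNAs outside the cluster, were not the cluster's abundant ones. Its other seeds were not set against outside names here. miR-519d, with the seed AAAGUGC of miR-17, miR-20a, miR-20b, miR-93, miR-106a and miR-106b, stood at 1686 reads per 10000000 in the library labelled MCF-10A cell. Those 6 names together stood at 40983, so miR-519d supplied 3.95% of the reads with this seed. In MDA-MB-231 cells and in both exosome libraries miR-519d was at 0, and the 6 other names stood at 240512 reads per 10000000 in the cells.

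The seed AAGUGCU went the other way. Its cluster members are miR-520a-3p, miR-520b, miR-520c-3p, miR-520d-3p and miR-520e. They stood together at 644 reads per 10000000 in the library labelled MCF-10A cell. The shared value of miR-520b and miR-520c-3p was counted once. The outside names miR-302a to miR-302e, miR-372 and miR-373 stood at 297 there. Cluster names thus supplied 68.4% of the reads with this seed. miR-520c-3p and miR-373 are known as promoters of invasion in breast cancer cells, and miR-520c-3p was at 0 in MDA-MB-231 cells and exosomes, where miR-373 had 1 read each. miR-520h, which is miR-520g without its last 2 bases, had 1378 reads against 670 for miR-520g.

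Both arms of a hairpin were listed for 23 hairpin names when star names are included, and the 3p arm was higher in 10 and the 5p arm in 13. Over pairs in which neither arm shares its value with another name, 6 of 11 had the higher 3p arm. By reads, 3p products held 51.9% of the cluster, 5p products 32.8%, and names that carry no arm 15.3%. These shares go by name. By their coordinates miR-1323 (9.42%) and miR-1283 (1.86%) lie on the 5′ side of their hairpins. miR-520h (1.54%), miR-518b (1.32%) and miR-521 (1.13%) lie on the 3′ side. The gap between the arms is thus smaller than the named shares show. The 3p share includes miR-522 and miR-518f, 4.59% of the reads, which have no RefSeq match and were placed by the 5p arm of miR-522* and miR-518f*. No single arm was favoured across the cluster.

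Within a hairpin the arms could differ widely. miR-516b stood at 13.51 and its 3p product miR-516b* at 4.58, a ratio of 510.4 (interval 346 to 789). For miR-516a the 5p arm stood at 11.91 and the 3p arm at 4.58, a ratio of 168 (114 to 260.4). The 3p arms of the miR-516a and miR-516b hairpins are 1 sequence, so the ratios share their smaller count. The miR-517 hairpins leaned to the other side: miR-517a stood at 14 and miR-517* at 7.21, a ratio of 111 (95.3 to 131) for the 3p arm. miR-517* comes from 3 hairpins and its 161 reads also enter the miR-517c pair, so these ratios share their smaller count too. Set against miR-517a and miR-517c together, the ratio was 136 (116 to 159). miR-518c followed with 29.5 for the 3p arm (24.7 to 35.5), and miR-526b with 52.1 for the 5p arm (36.6 to 77.0). In miR-519e the arms did not differ beyond counting error, with a ratio of 1.35 and an interval of 0.917 to 1.99.

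**Figure D2:**
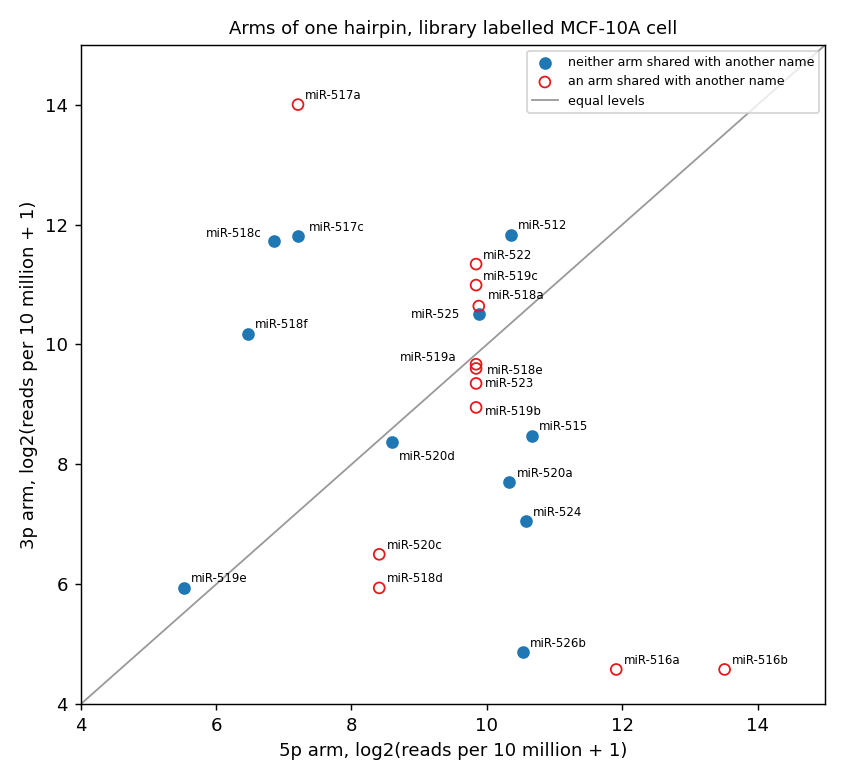
Level of the 3p arm (vertical) against that of the 5p arm (horizontal) for 23 hairpin names in the library labelled MCF-10A cell, both as log2 of reads per 10000000 plus 1. Open circles mark pairs in which an arm shares its value with another name, and the points lie on both sides of the line of equal levels, 10 on the 3p side and 13 on the 5p side.

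Comparisons between libraries used names that reached 10 reads per 10000000 in either library, and a name counted as higher at a log2 difference of at least 2, or 4-fold. Between the cell libraries, all 49 members were higher in the library labelled MCF-10A cell than in MDA-MB-231 cells, against a background of 54.3% of the 665 names tested. The median log2 difference was 9.14 for the members and 2.83 for all names tested. The 41 members at 0 in MDA-MB-231 cells passed the minimum only through the other library and so had to be called, and the count is a description. The rule used values with a pseudocount, so folds were also computed on reads. For the 41 members at 0 in MDA-MB-231 cells the fold is a lower bound against 3 reads, from at least 4.25-fold for miR-520e to at least 4012-fold for miR-517a, with a median of 226.

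The 8 names with reads in both cell libraries gave ratios of 59.8 to 353. miR-516a-5p had 8 reads in those of MDA-MB-231 against 4208 in the library labelled MCF-10A cell (levels of 3.57 and 11.91), 353-fold higher in the latter (interval 179 to 819). miR-522 had 9 and 2834 reads (3.73 and 11.34), a 211-fold difference (111 to 463). miR-519a had 10 and 890 reads (3.87 and 9.67), the smallest ratio at 59.8 (32.4 to 125). Summed over distinct sequences, the cluster was 1333-fold higher (996 to 1828).

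**Figure D3:**
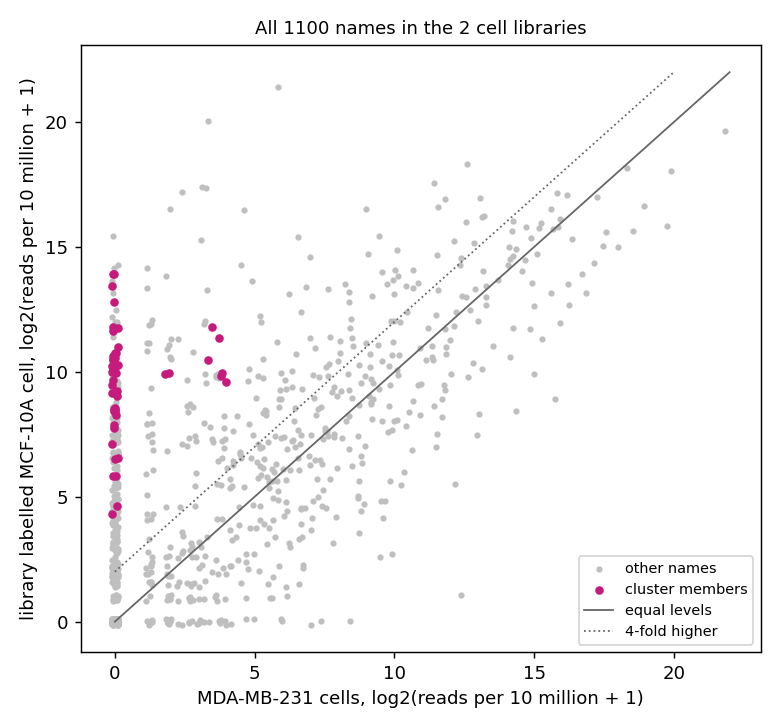
Level of all 1100 names in MDA-MB-231 cells (horizontal) against that in the library labelled MCF-10A cell (vertical), as log2 of reads per 10000000 plus 1, each point moved slightly at random so that overlapping points show. The 49 cluster members, in colour, all lie above the dotted 4-fold line, 41 of them at 0 in MDA-MB-231 cells.

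Between the libraries of the MCF-10A line, every member was at 0 in the exosomes, where the depth was lower. All 49 were called higher in the library labelled cell, with 57.2% of the 661 names tested higher. Members passed the minimum only through that library, so the rule had to call them and nothing is read from the count. The folds are bounds against 3 reads: 43 of the 49 were at least 4-fold, up to at least 685-fold for miR-517a. The other 6 (miR-520b, miR-520c-3p, miR-518d-3p, miR-519e, miR-516a-3p and miR-520e) had bounds under 4, down to 0.726 for miR-520e, so for these the reads do not show a 4-fold difference. Summed, the cluster was at least 3416-fold higher. These 2 comparisons share the library labelled MCF-10A cell and are not independent.

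Without that library, MDA-MB-231 cells could be set against MCF-10A exosomes, which differ in both line and fraction. The rule called 5 members higher in the MDA-MB-231 cells, with a background of 26.6% of names. All were at 0 in MCF-10A exosomes and passed the minimum only through the cells, so nothing is read from this count. On reads none of the 5 reached a 4-fold bound: miR-519a, with 10 reads against 0, was at least 0.569-fold, a bound that includes no difference. The bound for the summed cluster was at least 2.56-fold.

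The cluster in MDA-MB-231 was at the edge of detection in cells and exosomes alike. The 5p sequence of miR-519b and miR-519c had 9 reads in exosomes and 9 in cells, levels of 5.90 and 3.73, and was 4.79-fold higher in exosomes (interval 1.69 to 13.6). miR-516a-5p had 5 and 8 reads, levels of 5.07 and 3.57, a ratio of 3.0 (0.771 to 10.4). miR-519a had 3 and 10 reads, levels of 4.36 and 3.87, a ratio of 1.44 (0.254 to 5.58).

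The remaining names had fewer reads in the exosomes, whose library was shallower. miR-522 had 1 read in exosomes and 9 in cells, levels of 2.91 and 3.73, a ratio of 0.532 (0.0121 to 3.84). miR-1283 had 0 and 7 reads, and miR-518a-5p with miR-527 had 0 and 2. The miR-519b-5p sequence was the 1 whose interval excluded equal levels in exosomes and cells.

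By the 4-fold rule 2 of the 5 members tested, miR-519b-5p and miR-519c-5p, were higher in exosomes of MDA-MB-231 than in its cells, and they are the same sequence. The background was 22.2% of 499 names. The median log2 difference was 1.5 for the members and -0.09 for all names tested. The member median counts the miR-519b-5p sequence under 2 names. It leaves out miR-1283 (0 reads in exosomes, 7 in cells) and miR-518a-5p with miR-527 (0 and 2), which missed the minimum. No lean of the members as a group is read from it. Summed over distinct sequences, the cluster was 1.92-fold higher in exosomes (1.04 to 3.38). Without the miR-519b-5p sequence, 9 of the 18 exosome reads, the ratio was 1.20 (0.507 to 2.53). Several marker lists of other tissues were also a larger share of the exosome reads than of the cell reads in this line: stromal miRNAs at 0.574% against 0.000681%, liver miR-122 at 0.283% against 0.000204%, erythroid miRNAs at 0.317% against 0.00161%, leukocyte miRNAs at 0.283% against 0.0114%, and muscle miRNAs at 0.0181% against 0.000109%. Neuronal miRNAs went the other way, at 0.00691% against 0.0211%. Their part in the cluster's difference was not tested.

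Between the exosome libraries, the rule called 4 members higher on the MDA-MB-231 side, with a background of 29.3% of 505 names. All were at 0 in MCF-10A exosomes and passed the minimum only through the other library, so the calls were fixed by the filter. They stand for 3 sequences. The bound against 3 reads was at least 2.46-fold for the miR-519b-5p sequence and at least 1.36-fold for miR-516a-5p, while miR-519a, at 3 reads, was not above the limit. The summed cluster was at least 4.91-fold higher.

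Every sequence with reads in MDA-MB-231 has a copy in the same stretch of the cluster, and some have copies elsewhere in it too. This was noticed after the values were seen, and the boundary was set from them, so it is a description with no test. The last 7 hairpins of the cluster are MIR522, MIR519A1, MIR527, MIR516A1, MIR1283-2, MIR516A2 and MIR519A2, within chr19:53751211-53762430, a stretch of 11.2 kb. They can encode 7 of the 43 distinct sequences. In MDA-MB-231, 6 of these 7 had reads in cells and 4 in exosomes, and miR-516a-3p had none in either. Of the 36 sequences encoded only in the other hairpins, none had a read in MDA-MB-231 cells or exosomes.

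Hairpin copies limit how closely the reads can be placed. miR-516a-5p, miR-519a and miR-522 are encoded only in the last 7 hairpins, and they held 27 of the 45 cluster reads of MDA-MB-231 cells (60.0%, interval 45.5% to 73.0%) and 9 of 18 in exosomes (50%, 29% to 71.0%). In the library labelled MCF-10A cell the same 3 sequences held 8.88% of the cluster's reads. The other reads belonged to sequences with a copy there and copies elsewhere: the miR-519b-5p sequence (6 hairpins), miR-1283 (2 hairpins) and, in cells, miR-518a-5p with miR-527 (3 hairpins).

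The 36 sequences encoded only elsewhere held 87.0% of the cluster's reads (86.7% to 87.2%) in the library labelled MCF-10A cell. They held 0 of 45 in MDA-MB-231 cells, where 0 reads allow a share of up to 6.67%, and 0 of 18 in exosomes, which allows up to 16.7%. miR-517a, miR-516b and miR-1323, the leading sequences of the library labelled MCF-10A cell, are among those with no read in MDA-MB-231. In the library labelled MCF-10A cell the levels did not separate by position: the median was 9.88 for the 7 sequences of the last hairpins and 9.98 for the 36 others. The 36 sequences were set apart after the values were seen, so their 0 reads in MDA-MB-231 followed from the choice. Nothing about make-up is read from their shares. The 3 leading sequences were instead ranked by level in the library labelled MCF-10A cell. They held 43.8% of its cluster reads, and 0 of 45 and 0 of 18 in MDA-MB-231. For these leading sequences the make-up of the cluster's reads thus differed, and not only their total.

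**Figure D4:**
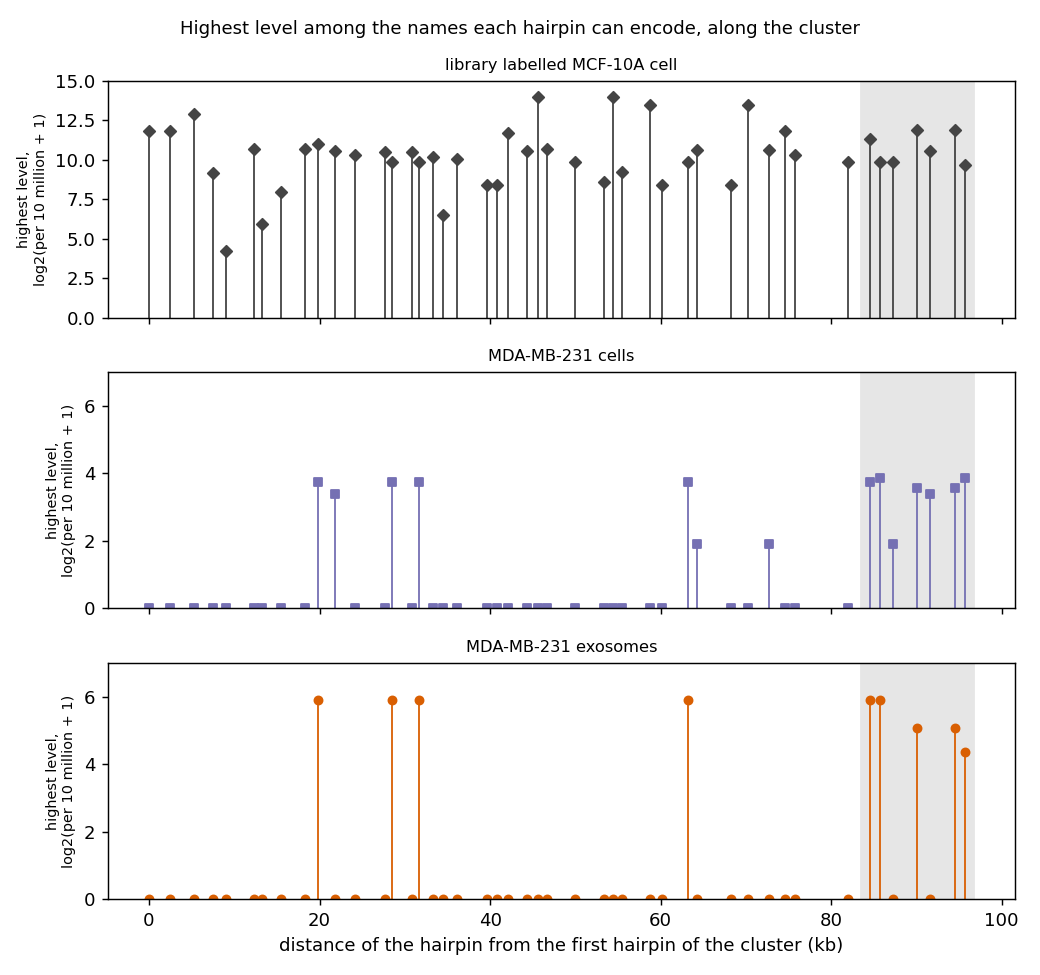
Highest level among the names each of the 46 hairpins can encode (vertical, log2 of reads per 10000000 plus 1) against its distance in kb from the first hairpin, in the library labelled MCF-10A cell, MDA-MB-231 cells and MDA-MB-231 exosomes; a sequence with several copies is drawn at each. The shaded stretch holds the last 7 hairpins, which include every sequence with a read in MDA-MB-231, while the top panel shows high levels along the whole cluster.

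**Figure D5:**
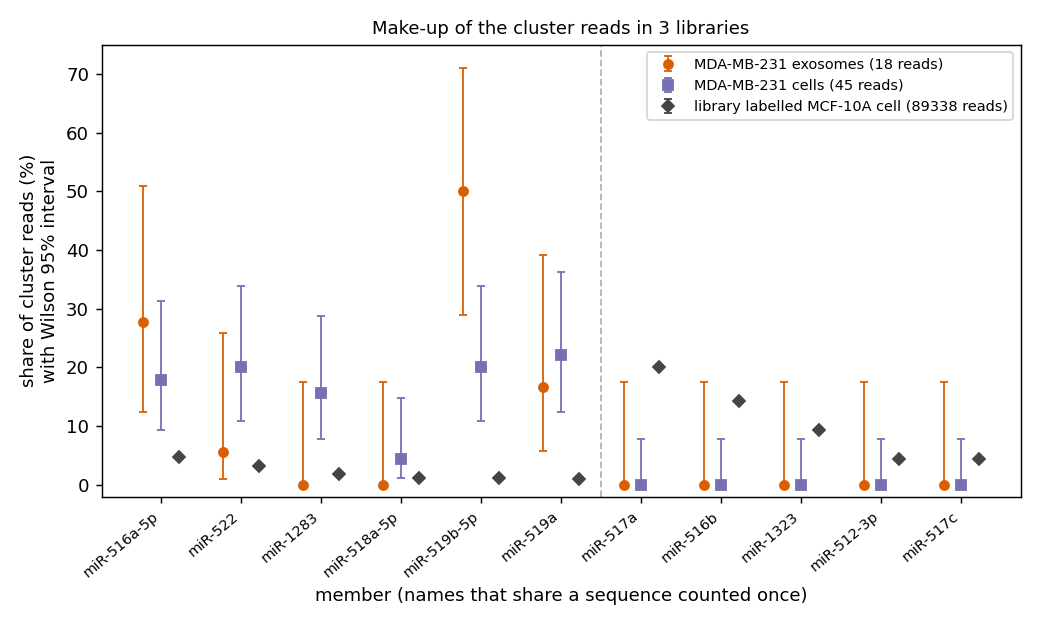
Share of the cluster's reads in percent (vertical), with Wilson 95% intervals, for the 6 sequences with reads in MDA-MB-231 cells (left of the dashed line) and the 5 most abundant others, in MDA-MB-231 exosomes (18 reads) and cells (45 reads), beside the library labelled MCF-10A cell (89338 reads). miR-517a holds 20.1% of the latter and none of the MDA-MB-231 reads.

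Among miRNAs near the cluster or linked to it, the neighbours miR-371-5p and miR-372 were at 0 in 3 libraries, while in the library labelled MCF-10A cell they stood at 7.27 and 8.0. miR-371-3p stood at 3.21 and miR-373 at 4.20 there. The miR-302 and miR-367 names, markers of pluripotent stem cells from another chromosome, were above 0 in that library alone, 6 of 12 names and 32.9 reads per 10000000 in all. Levels of these neighbours were thus under those of most cluster members, whose median was 9.88.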

How the data were processed

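Per the labels' protocols, RNA came from TRIzol extraction, fragments of 17 to 52 nt were kept, and sequencing was done on a Genome Analyzer IIx. The submitters' processing notes name Novoalign, edgeR and hg18, with neither version nor role. The assignment of reads to names, and the release of miRBase behind the names, are not given in the sources used here. Log2 values with 2 decimals were deposited by the authors for each library. Scale and base were inferred: 2 to the power of the value, minus 1, summed to 9992361 to 10004141 per library, so values were read as log2 of reads per 10000000 plus 1.

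Low values are whole multiples of 1 step (6.52, 1.36, 7.97 and 0.914 per 10000000 in exosomes and cells of MDA-MB-231, then of MCF-10A), and dividing by it gave reads and depths. For 65.7%, 55.7%, 65.6% and 40.1% of names above 0 the rounding resolved single reads (an interval under 0.5 reads), and 100% of these were whole. Larger read numbers are known to 0.347%. A read of a shared sequence counts under each name.

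The members and lists were chosen with earlier results of these data known. Named were all members with reads in MDA-MB-231, the 15 highest, the lowest, arm pairs, neighbours and outside names with the seeds AAAGUGC and AAGUGCU. Ratios have exact conditional binomial intervals and shares Wilson intervals, from Python 3.11.15, scipy 1.17.1, numpy 2.4.6 and pandas 2.3.3. Recovery of reads and depths was tested on simulated data, as was the 4-fold rule on names with many reads. The intervals, and the rule on names with few reads, were not. Sequences and coordinates come from RefSeq (GRCh38.p14) and GENCODE 29, since the files give no coordinates. Alternatives were other scaling, minimum, pseudocount, name counting and a rule on reads.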

Additional observations from a re-analysis of the deposited data

Results flagged for a closer look

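The summed cluster had opposite exosome-to-cell directions in the 2 lines, and the difference between the lines was not tested. Summed over distinct sequences, it was 1.92-fold higher in exosomes than in cells of MDA-MB-231 (1.04 to 3.38), while in MCF-10A it was at 0 in exosomes and present in the library labelled cell. The MDA-MB-231 direction rests on the miR-519b-5p sequence, 4.79-fold higher in exosomes (1.69 to 13.6): without it the ratio was 1.20 (0.507 to 2.53). The point values of miR-516a-5p (3.0-fold, 0.771 to 10.4) and miR-519a (1.44-fold, 0.254 to 5.58) lie on the same side, but their intervals include no difference, so the reads give no direction for them. In MDA-MB-231 miR-522 had a ratio of 0.532, and miR-1283 and miR-518a-5p had reads in cells and none in exosomes. Each direction rests on 1 library on each side, and the MCF-10A side on the library that stood apart.

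Star names, which lie outside the member rule, also had values. All 10 star names of the cluster's numbers were above 0 in the library labelled MCF-10A cell, and none in MCF-10A exosomes. miR-517*, miR-518c*, miR-518f*, miR-519e* and miR-526b* hold sequences of their own, and the others repeat the sequence and reads of a member. In MDA-MB-231 cells and exosomes 4 star names were above 0, the 4 that hold the miR-519b-5p sequence, so they add no reads to those of the members.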

How the results depend on the processing

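Of 44 values under alternatives, 29 stayed near the main value. This tally does not measure stability, because many of the 29 had little or no room to move. They include the counts of members higher than in MDA-MB-231 cells, where 41 of the 49 were at 0. They also include the counts against MCF-10A exosomes, where every member was at 0, and the cluster's share of those exosomes. For counts of members, near meant within a set factor of the main count, so single members could still lose their call. For shares, it meant within the counting interval of the main share. All 49 members stayed higher in the library labelled MCF-10A cell than in MDA-MB-231 cells under upper-quartile scaling, which lowered the background from 54.3% to 41.7% (and from 57.2% to 43.7% against MCF-10A exosomes). The 41 members at 0 in MDA-MB-231 cells had little room to lose their call, so nothing is read from this. With a pseudocount of 10, 47 of the 49 stayed higher than in MDA-MB-231 cells, and 47 than in MCF-10A exosomes. By the rule on recovered reads (at least 10 reads), 43 of the 49 were higher than in MCF-10A exosomes. Without the library labelled MCF-10A cell, 5 members could be called in MDA-MB-231 cells against MCF-10A exosomes. In MDA-MB-231, the 2 members higher in exosomes than in cells became 0 under upper-quartile scaling, 0 with a pseudocount of 10, 1 with equal values counted once and 0 by the rule on reads. Leaving out the miR-519b-5p sequence, an alternative chosen after seeing the data like that without the library, moved the summed ratio in this line from 1.92 to 1.20. Between exosomes, the 4 members higher on the MDA-MB-231 side became 2 at a minimum of 50 per 10000000 and 0 by the rule on reads. Counting equal values once, also in the total, moved the cluster's share from 0.00176% to 0.00117% in MDA-MB-231 exosomes and from 1.01% to 0.833% in the library labelled MCF-10A cell. Adding star names moved it to 0.00411%, to 0.00125% in MDA-MB-231 cells (from 0.000762%) and to 1.05%. In both MDA-MB-231 libraries this only counted the 9 reads of the miR-519b-5p sequence again under 4 star names. With every name counted, 3p arms held 58.5% of cluster reads against 51.9% with equal values counted once, and the seed UCGUGCA 36.1% against 24.5%. No paired analysis was possible because each group holds 1 library and the labels carry no replicate numbers. Depth limits MDA-MB-231, whose 2 libraries hold 45 and 18 cluster reads, and 0 reads in MCF-10A exosomes allow up to 23.9 per 10000000 for a name.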
